A study of Mus musculus with 12 samples.

Results

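The sterol and fatty acid synthesis genes examined here were 34 genes chosen by name, with earlier results of these data known. They were 18 enzymes of cholesterol synthesis, 10 enzymes of fatty acid synthesis, elongation and desaturation, and 6 genes that regulate or move sterols. Their RNA was compared in microglia, the resident macrophages of the brain, between 3 samples from Lrrc33+/+ mice (WT) and 3 samples labelled Lrrc33-/- (KO-labelled), all from mice aged 3 weeks. The targeted gene, now named Nrros, encodes a protein that holds latent TGF-beta on myeloid cells. Sorting by FACS kept brain cells that were CD45low, CD11b+, CD39+ and Ter119-, and an Affymetrix exon array was run on the total RNA of each sample. The labels do not give the structure of the mutant allele, the strain or the number of mice behind a sample. Of the 34 genes, 30 were read from a transcript cluster that carries only their symbol, among 16755 clusters. Another 3 (Idi1, Tm7sf2 and Acss2) were read from the exon-level table as the median of their own probesets, and 1 (Acat2) had no feature named for it alone, so that its RNA was not analysed here. All values are RMA values on the log2 scale, so a difference of 1 is a doubling, and every difference is KO-labelled minus WT.

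Cells make cholesterol from acetyl-CoA through mevalonate and squalene, and fatty acids from the same acetyl-CoA through malonyl-CoA. The transcription factors SREBP (genes Srebf1 and Srebf2) raise both sets of genes. SCAP carries them to the Golgi for cleavage when membrane sterol is low, and the INSIG proteins hold SCAP back in the endoplasmic reticulum when sterols are plentiful. Insig1 is itself a target of SREBP, while Insig2 is not thought to depend on it in the same way. In the brain, microglia take up and process lipid from myelin and dying cells, besides making their own.

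Sequence upstream of the start is shown for 4 genes. Insig1, Sc5d and Msmo1 had the largest falls among genes with their own cluster. Hmgcs1 was the only gene, among the 27 members with a promoter window, that held the sterol regulatory element as searched here. Each run gives the 250 bases before the RefSeq start (build GRCm38.p6), 5′ to 3′ on the gene's strand. Capitals mark the sterol regulatory element TCACNCCAC, the E-box CACGTG and the NF-Y box CCAAT, each on either strand, so that a CCAAT box on the other strand reads ATTGG.
Insig1, chr5:28071162-28071411, plus strand: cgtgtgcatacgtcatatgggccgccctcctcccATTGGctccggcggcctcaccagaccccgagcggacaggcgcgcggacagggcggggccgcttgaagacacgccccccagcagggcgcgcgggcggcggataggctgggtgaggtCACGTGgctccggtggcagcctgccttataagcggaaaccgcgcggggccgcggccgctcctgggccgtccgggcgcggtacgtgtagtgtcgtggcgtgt
Sc5d, chr9:42264301-42264550, minus strand: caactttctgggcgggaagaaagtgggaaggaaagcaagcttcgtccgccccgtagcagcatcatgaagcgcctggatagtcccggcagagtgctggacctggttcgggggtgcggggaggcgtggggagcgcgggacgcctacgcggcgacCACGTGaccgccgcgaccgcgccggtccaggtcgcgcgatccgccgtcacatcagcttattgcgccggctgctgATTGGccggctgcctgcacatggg
Msmo1, chr8:64733579-64733828, minus strand: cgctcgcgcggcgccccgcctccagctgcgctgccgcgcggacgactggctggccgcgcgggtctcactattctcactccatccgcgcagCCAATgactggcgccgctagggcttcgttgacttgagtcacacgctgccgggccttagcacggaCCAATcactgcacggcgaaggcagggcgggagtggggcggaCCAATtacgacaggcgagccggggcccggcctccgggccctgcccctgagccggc
Hmgcs1, chr13:119690101-119690350, plus strand: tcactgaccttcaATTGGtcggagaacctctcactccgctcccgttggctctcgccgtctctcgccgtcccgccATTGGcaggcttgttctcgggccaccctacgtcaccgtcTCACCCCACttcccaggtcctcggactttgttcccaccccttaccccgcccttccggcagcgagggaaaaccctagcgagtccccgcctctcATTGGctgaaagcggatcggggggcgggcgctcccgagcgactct

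The stretch shown for Hmgcs1 held the sterol regulatory element 137 bases before the start and 3 NF-Y boxes. Insig1 and Sc5d each held 1 E-box, 101 and 98 bases before the start, and 1 NF-Y box, and Msmo1 held 3 NF-Y boxes and neither of the other motifs. The same search was run on the full windows, which add the 50 bases after the start, of the 27 members that the RefSeq table covers. The sterol regulatory element stood in 1 of 27 (3.70%), against 1.41% of 17492 protein-coding genes with a window. The NF-Y box stood in 14 of the 15 sterol enzymes with a window (93.3%), in 4 of 7 fatty acid enzymes (57.1%) and in 42.3% of protein-coding genes. It did not divide the sterol enzymes by their change: all 6 lower enzymes with a window held it (Idi1 among them), as did the 1 that was higher and all 7 that did not pass, and the 1 without it was Acat2. The Sp1 box GGGCGG stood in 14 of 15 sterol enzymes, 3 of 7 fatty acid enzymes and 49.2% of protein-coding genes, and the E-box in 3 of 15, 1 of 7 and 8.91%. A match says only that these letters occur in the window, a gene with several windows had more chances, and no test was made of these shares. A window without a match does not show that a gene lacks such an element, since only these letters in these bases were searched. Members without a window were not searched.

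Before the members, the arrays were compared as a whole. Samples of the same group correlated at r = 0.994 to 0.996 and those of different groups at r = 0.959 to 0.965, both across clusters, which are not independent replicates. The level of the Nrros cluster did not fall in the samples labelled Lrrc33-/- (9.81 ± 0.18 in WT and 9.86 ± 0.03, SD, n = 3 each, limma, adjusted p = 0.759). It does not bear out the genotype labels, and every direction given here rests on them. A cluster level need not show a change confined to part of the transcript. WT replicate 3 alone carried RNA of the Y chromosome, with Eif2s3y at 7.72 against 3.06 to 3.15. Of 7 measured microglia markers 6 were lower (summed level on the linear scale 39236 to 40877 in WT and 21692 to 21799 in KO-labelled samples). Of 7 measured markers of border-associated macrophages 6 were higher (5331 to 6171 and 22339 to 23132), and the part of either shift in the members' differences was not tested. Each count is 85.7% of its list, where 14.0% of all clusters were lower and 14.4% higher. In RNA from many cells, fewer cells of a kind and less RNA per cell cannot be told apart.

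Several enzymes of cholesterol synthesis fell in the KO-labelled samples and others did not, and most fatty acid enzymes did not fall. The shares of the branches were not tested against each other. Of the 15 sterol enzymes with a cluster of their own, 6 were lower and 1 was higher, that is 40.0% and 6.67%. Over all clusters 14.0% were called lower and 14.4% higher in the same test (limma, Benjamini-Hochberg adjusted p under 0.05). Of the 9 fatty acid enzymes with a cluster, 2 were lower (22.2%) and 1 was higher (11.1%), shares near those of all clusters. Among the 6 regulators and transport genes, 2 were lower and 1 was higher. The median difference was -0.15 for the sterol enzymes, 0.04 for the fatty acid enzymes and -0.21 for the regulators, against -0.02 for all clusters. The count of 6 lower sterol enzymes was the same without WT replicate 3, and without each of the other 5 samples. Without WT replicate 3 the differences were -1.71 for Insig1, -1.33 for Sc5d, -1.08 for Idi1, -0.92 for Msmo1, -0.67 for Acly, -0.65 for Cyp51 and -0.63 for Hmgcs1. In the same fit they were -0.53 for Mvd, -0.40 for Fdft1 and 0.35 for Srebf1, and these 10 members all passed.

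**Figure D1:**
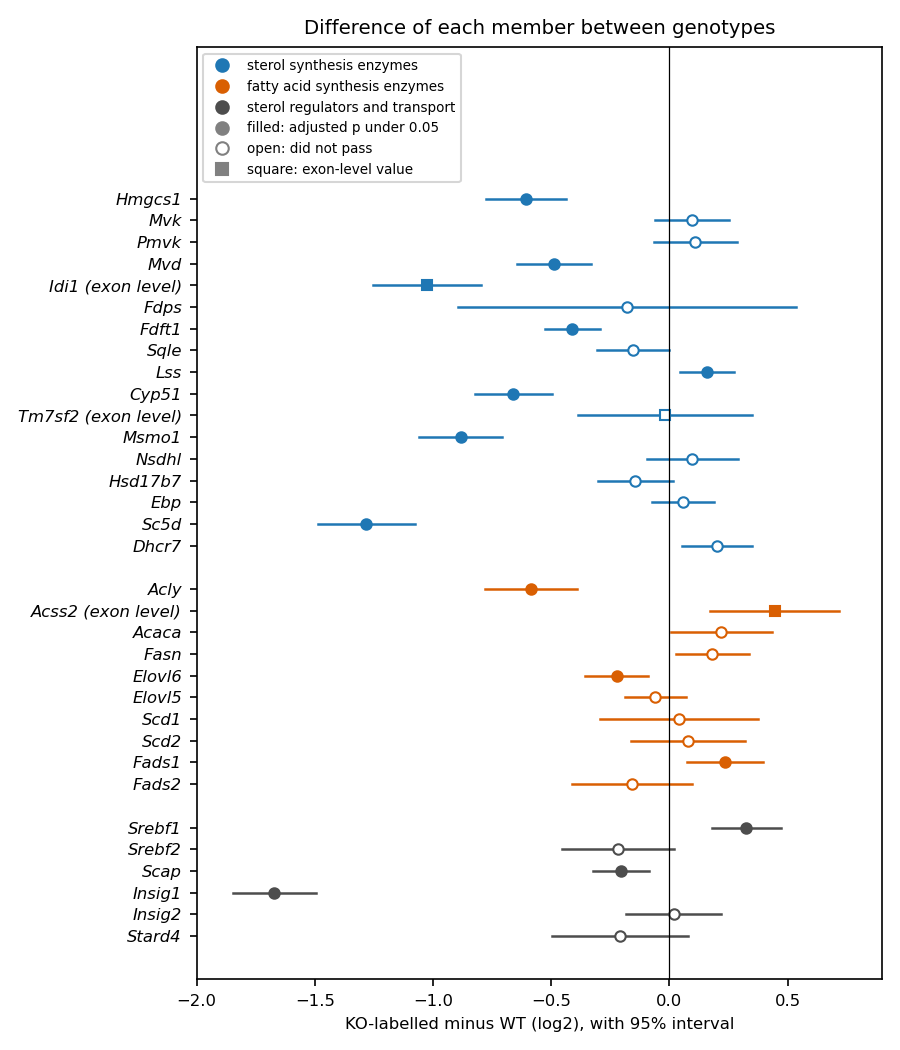
Difference between KO-labelled and WT samples (log2, horizontal axis) for the 33 members with a value, with the 95% interval of limma's moderated test as a line; sterol enzymes run from top to bottom in pathway order, filled marks passed the test, and squares are exon-level values. Insig1 (-1.67), Sc5d (-1.28), Idi1 (-1.03) and Msmo1 (-0.88) lie farthest below 0, and most fatty acid enzymes lie within 0.25 of 0.

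The gene with the largest fall was a regulator. Insig1 (transcript cluster 6929510; chromosome 5, 28071412 to 28078662) encodes the protein that retains SCAP in the endoplasmic reticulum. It stood at 10.45, 10.24 and 10.24 in WT samples and at 8.67, 8.67 and 8.58 in KO-labelled samples, each in the order of their replicate numbers, as for all genes here. The groups were far apart, and Insig1 RNA was 3.19-fold lower in the KO-labelled samples (difference -1.67, SE 0.07; limma, adjusted p = 7.8e-06). Leaving out any 1 sample kept the difference between -1.71 and -1.60. At the exon level 10 of its 10 probesets were lower in the mean and 8 passed the test on their own.

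Insig2, the other INSIG gene, did not move with it. It stood at 7.58, 7.61 and 7.85 in WT and 7.70, 7.64 and 7.75 in KO-labelled samples, so the groups overlapped. Its difference was 0.02 with an interval of -0.18 to 0.22 (limma, adjusted p = 0.914).

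Of the SREBP genes, Srebf1 passed and Srebf2 did not. Srebf1, whose product favours fatty acid genes in many tissues, rose 1.25-fold. Its values were 7.97, 7.88 and 7.996 in WT against 8.34, 8.30 and 8.20 in KO-labelled samples, with no overlap (0.33, SE 0.06; limma, adjusted p = 0.0071), and all 32 of its probesets had a difference above 0, though none passed alone. Srebf2, whose product favours sterol genes, had values of 9.33, 9.19 and 9.07 in WT and 9.01, 9.11 and 8.81 in KO-labelled samples. The groups overlapped and it did not pass (-0.22, SE 0.10; limma, adjusted p = 0.160). Whether the differences of Srebf1 and Srebf2 differ from each other was not tested.

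Scap, the escort of SREBP, stood at 9.19, 9.13 and 9.19 in WT and 8.97, 8.98 and 8.94 in KO-labelled samples. The groups did not overlap and the fall was small (-0.20, SE 0.05; limma, adjusted p = 0.020). The call was lost when WT replicate 1 or 3, or KO replicate 1 or 3, was left out (adjusted p = 0.057 to 0.072). Stard4, which carries sterol between membranes, did not pass (-0.21, SE 0.12; adjusted p = 0.272), with means of 6.30 ± 0.16 and 6.09 ± 0.21 (SD, n = 3). Its exon-level gene value differed by -0.50 (adjusted p = 0.144), and 1 of its 12 probesets passed as lower.

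In the first part of the sterol branch, up to squalene, 3 of the 6 enzymes with a cluster fell and 0 rose. Over all clusters 14.0% were lower and 14.4% higher. Hmgcs1, the cytosolic synthase of HMG-CoA, had values of 8.08, 8.22 and 8.09 in WT and 7.49, 7.63 and 7.45 in KO-labelled samples. Every KO-labelled value lay below every WT value, and the level was 34.3% lower (-0.61, SE 0.07; limma, adjusted p = 0.00072). Mvd, which makes isopentenyl diphosphate, fell by 0.49 (SE 0.07; adjusted p = 0.0014), from 7.45 ± 0.09 to 6.96 ± 0.06 (SD, n = 3). Fdft1, the squalene synthase and the first enzyme committed to sterols, fell by 0.41 (SE 0.05; adjusted p = 0.00082), from 8.12 ± 0.03 to 7.71 ± 0.02. Both missed the threshold as exon-level gene values, at -0.28 and -0.35 (adjusted p = 0.186 and 0.091).

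Idi1, the isomerase of isopentenyl diphosphate, was read only at the exon level. In that summary 7.53% of 22184 genes were called lower and 8.38% higher. Idi1 stood at 6.92, 7.01 and 6.81 in WT and 5.83, 5.96 and 5.87 in KO-labelled samples. The groups were well separated (-1.03, SE 0.10; limma, adjusted p = 0.00034), and all 15 probesets had a difference below 0. With only the brighter probesets the fall was smaller, at -0.65 (adjusted p = 0.0012).

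The enzymes between these steps did not pass. Mvk and Pmvk, the kinases that phosphorylate mevalonate in turn, differed by 0.10 (interval -0.06 to 0.25) and 0.11 (interval -0.07 to 0.29). Fdps, the farnesyl diphosphate synthase, was poorly measured: its cluster ran from 3.69 to 4.81 in WT and from 3.85 to 4.54 in KO-labelled samples, with a mean in the lowest 9.90% of clusters. Its interval ran from -0.90 to 0.53. The median of its 23 probesets, at a level of 6.89 in WT, differed by -0.07 (adjusted p = 0.725).

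Between squalene and cholesterol the changes were uneven, with 3 of 9 enzymes lower, 1 higher and 5 that did not pass. Among all clusters 14.0% were lower and 14.4% higher. Sc5d, the desaturase that acts close to the end of the pathway (transcript cluster 6994935; chromosome 9, 42251592 to 42264300), had values of 8.57, 8.47 and 8.37 in WT. They were 7.32, 7.19 and 7.05 in KO-labelled samples, 2.43-fold lower and with a gap many times the spread within groups (-1.28, SE 0.09; limma, adjusted p = 4.8e-05). Of its 10 probesets all were lower in the mean and 8 passed on their own.

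Msmo1, the oxidase that removes methyl groups from the sterol ring, fell by 0.88 (SE 0.07; limma, adjusted p = 0.00014). Its values were 8.64, 8.83 and 8.62 in WT and 7.82, 7.87 and 7.75 in KO-labelled samples, which is 45.8% lower. Cyp51, the lanosterol demethylase that acts earlier on the ring, had values of 7.36, 7.24 and 7.32 in WT and 6.76, 6.63 and 6.56 in KO-labelled samples. No array of either gene overlapped with the other group, and Cyp51 was 36.7% lower (-0.66, SE 0.07; adjusted p = 0.00042).

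The enzymes around them did not follow. Sqle, the squalene epoxidase, had means of 5.96 ± 0.08 and 5.80 ± 0.06 (-0.15, SE 0.06; adjusted p = 0.124), and Hsd17b7, a reductase of sterol ketones, differed by -0.14 (adjusted p = 0.172). Nsdhl (0.10) and Ebp (0.06), a dehydrogenase and an isomerase of sterols, are both on the X chromosome, of which WT replicate 3 differs in Xist. Their intervals were -0.10 to 0.29 and -0.08 to 0.19. Tm7sf2, a sterol reductase read at the exon level, stood at 7.13, 7.28 and 7.25 in WT and 6.98, 7.55 and 7.07 in KO-labelled samples, with overlapping groups (-0.02, SE 0.16; adjusted p = 0.960).

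In the other direction, Lss, the lanosterol synthase, was slightly higher (0.16, SE 0.05; limma, adjusted p = 0.047), with 6.56 ± 0.005 in WT and 6.72 ± 0.03 in KO-labelled samples. It passed in no fit that left out a sample (adjusted p = 0.065 to 0.127). Dhcr7, the reductase of the last step, had means of 8.40 ± 0.09 and 8.60 ± 0.04, with groups that did not overlap, and did not pass (0.20, SE 0.06; adjusted p = 0.052). It passed as higher with an intensity trend and robust variance, with array weights and without dim clusters (adjusted p = 0.034, 0.044 and 0.036), and its exon-level gene value differed by 0.36 (adjusted p = 0.084). All 15 of its probesets had a difference above 0.

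**Figure D2:**
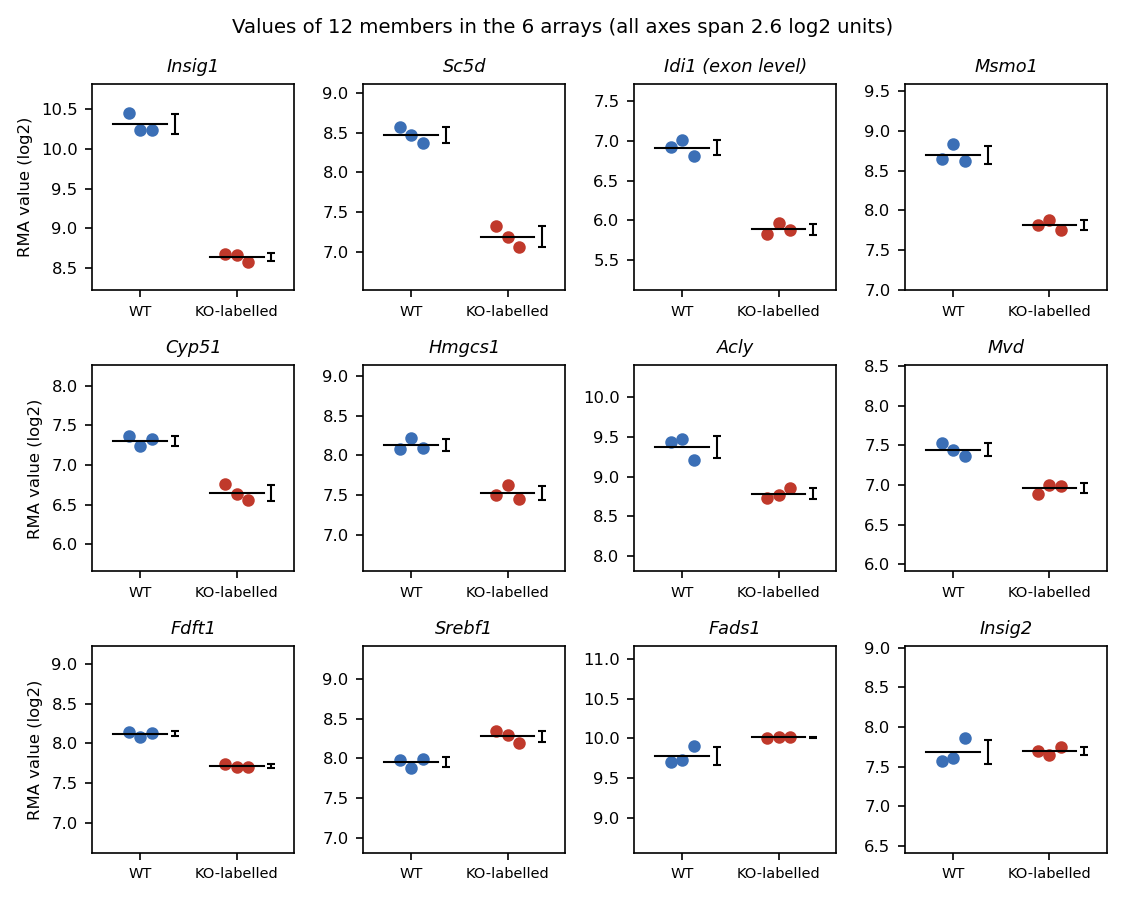
RMA values (log2) of 12 members in each of the 3 WT and 3 KO-labelled arrays, with the group mean as a line and the SD as an error bar beside it; every vertical axis spans 2.6 units. In Insig1, Sc5d, Idi1, Msmo1, Cyp51, Hmgcs1, Acly, Mvd and Fdft1 all KO-labelled points lie below all WT points, in Srebf1 and Fads1 above them, and in Insig2 they overlap.

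At the head of both branches stand the enzymes that supply cytosolic acetyl-CoA, and they differed in direction. Acly, which makes it from citrate, had values of 9.44, 9.47 and 9.21 in WT and 8.74, 8.76 and 8.86 in KO-labelled samples. It was 33.4% lower with no overlap (-0.59, SE 0.08; limma, adjusted p = 0.0017), and all 30 of its probesets had a difference below 0. Acss2, which makes it from acetate, was read at the exon level and stood at 6.19, 6.19 and 5.87 in WT and 6.49, 6.53 and 6.57 in KO-labelled samples. It passed as higher (0.45, SE 0.12; adjusted p = 0.039), but in no fit that left out a sample (adjusted p = 0.063 to 0.104).

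The core enzymes of fatty acid synthesis did not fall. Acaca, which makes malonyl-CoA, differed by 0.22 (SE 0.09; limma, adjusted p = 0.121) and Fasn, the fatty acid synthase, by 0.18 (SE 0.07; adjusted p = 0.085). In both genes every KO-labelled value lay above every WT value, with 7.64, 7.31 and 7.37 against 7.20 to 7.26 for Acaca. The intervals, 0.01 to 0.43 for Acaca and 0.03 to 0.34 for Fasn, hold no fall of the size seen in Acly.

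The elongases and desaturases changed little. Elovl6, which elongates palmitate, was lower by a small step (-0.22, SE 0.06; limma, adjusted p = 0.024) at a dim level of 4.94 ± 0.02 in WT and 4.72 ± 0.07. It missed the threshold without any 1 sample except KO replicate 2 (adjusted p up to 0.079). Elovl5, which elongates polyunsaturated fatty acids, differed by -0.06 (interval -0.19 to 0.07).

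Among the desaturases Fads1, of the polyunsaturated series, was higher (0.24, SE 0.07; adjusted p = 0.039), at 9.78 ± 0.11 and 10.01 ± 0.005. Of the 6 fits that left out a sample it passed only in the one without WT replicate 3, and in the others it did not (adjusted p = 0.085 to 0.124). Its partner Fads2 differed by -0.16 (interval -0.41 to 0.10) and passed as lower only without WT replicate 1 (-0.27, adjusted p = 0.049). The stearoyl-CoA desaturases Scd1 (0.04, interval -0.29 to 0.38) and Scd2 (0.08, interval -0.16 to 0.32) did not pass, and in Scd1 the KO-labelled samples ran from 6.22 to 6.80.

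The branches were also set against each other in each array. The mean over the 15 sterol enzymes was 7.39, 7.40 and 7.30 in WT and 7.10, 7.10 and 7.08 in KO-labelled samples, a difference of -0.27 with no overlap. The mean over the 9 fatty acid enzymes was 7.96, 8.03 and 7.96 in WT and 8.003, 7.94 and 7.92 in KO-labelled samples, a difference of -0.03 with overlapping groups. Sterol minus fatty acid moved from -0.62 ± 0.05 to -0.86 ± 0.04 (SD, n = 3), a change of -0.24, or -0.27 without WT replicate 3. With the median over members in place of the mean, the fatty acid difference was 0.18 and the change in sterol minus fatty acid was -0.44. These means are descriptions, with no p, since members were chosen by name and are not replicates. The 6 sterol enzymes called lower fell by 0.41 to 1.28, the 8 that did not pass lay between -0.18 and 0.20, and Lss was higher by 0.16. The test that made these groups used the same values, so the split only describes the spread between enzymes.

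**Figure D3:**
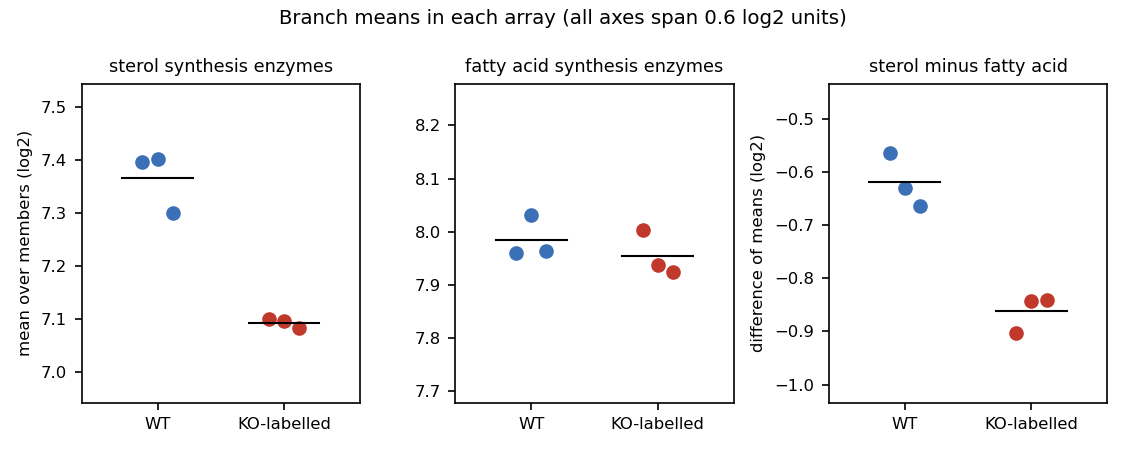
Mean RMA value (log2) over the 15 sterol enzymes, over the 9 fatty acid enzymes, and the first minus the second, in each of the 6 arrays; lines are group means and every vertical axis spans 0.6 units. The KO-labelled arrays lie below the WT arrays for sterol enzymes (7.08 to 7.10 against 7.30 to 7.40) and overlap with them for fatty acid enzymes.

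Along the genes, single probesets showed the same unevenness between members. The exon-level values come from the same hybridisations and are not independent of the clusters. Of 257 probesets of the sterol enzymes, 19 passed as lower (7.39%) and 1 as higher (0.389%), while among 321091 probesets with 1 symbol 3.67% were lower and 4.47% higher (limma, p adjusted over all probesets). These 19 came from 5 genes, with 8 in Sc5d, 5 in Msmo1, 3 in Idi1, 2 in Cyp51 and 1 in Fdft1. Of 283 probesets of the fatty acid enzymes 3 were lower (1.06%), 2 in Acly and 1 in Fads2. Of 182 of the regulators 10 were lower, 8 of them in Insig1. As gene values at the exon level, 5 of 17 sterol enzymes (29.4%) were lower, namely Hmgcs1, Idi1, Cyp51, Msmo1 and Sc5d, and 0 were higher. Of 10 fatty acid enzymes 1 was lower (Acly) and 1 higher (Acss2). Of 6 regulators 1 was lower (Insig1) and 1 higher (Srebf1). Over all 22184 gene values at this level 7.53% were lower and 8.38% higher.

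**Figure D4:**
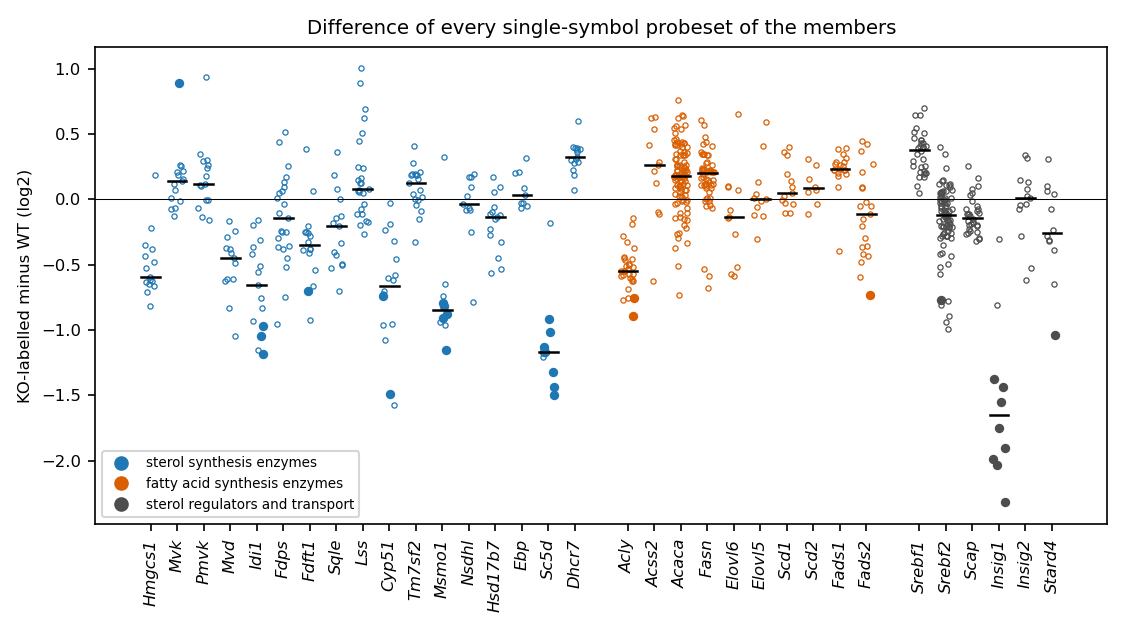
Difference between KO-labelled and WT samples (log2, vertical axis) of every probeset annotated with only that member's symbol, with the median as a line and filled points for probesets that passed; probesets of 1 gene are not replicates. In Sc5d, Idi1, Cyp51, Mvd, Acly and Insig1 every probeset lies below 0, and in Srebf1 and Dhcr7 every probeset lies above 0.

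Other genes of the pathway were read from lists chosen by name, with earlier results of these data known. Of 11 further SREBP pathway genes with a cluster, 1 was lower and 1 higher, shares of 9.09% each and below those of all clusters, with a median difference of -0.02. The lower gene was Ggps1, which makes geranylgeranyl diphosphate from the farnesyl intermediate (-0.66, SE 0.09; limma, adjusted p = 0.0013). The higher gene was Erg28, a scaffold of sterol demethylation enzymes (0.44, SE 0.06; adjusted p = 0.0015). At the exon level Acsl3, which activates fatty acids, was higher by 1.84 (SE 0.14; adjusted p = 0.00011).

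Of 7 genes of LXR and oxysterol metabolism with a cluster, 4 were higher (57.1%) and 1 lower (14.3%), with a median difference of 1.02. Over all clusters 14.4% were higher and 14.0% lower. Oxysterols are cholesterol derivatives that bind INSIG and activate LXR. Ch25h and Cyp27a1, which make oxysterols, were higher by 3.85 (SE 0.37) and 1.87 (SE 0.05). Ch25h, with 3 probesets, was dim in WT (5.13, 4.79 and 4.28) and spread widely in KO-labelled samples (9.09, 8.87 and 7.76). The sterol exporter genes Abcg1 and Abca1, which LXR induces, were higher by 1.35 and 1.02, and Lpcat3, a phospholipid enzyme that LXR also induces, was lower by a difference of -0.78. The highest adjusted p of these 5 was 0.00027 (limma). Mylip, a bright gene of the same list, did not pass (-0.08, SE 0.09, limma, adjusted p = 0.588). The LXR genes themselves did not pass (Nr1h3, 0.16, and Nr1h2, 0.12 at the exon level). The part of these genes in the fall of the sterol enzymes was not tested.

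Markers of other brain cells that make cholesterol were read beside the members. For the counts below, 14.0% of all clusters were lower and 14.4% higher. Of 12 measured markers of the oligodendrocyte lineage, the myelin-forming cells, 1 was higher and 0 were lower, and their summed level on the linear scale was 1383 to 1490 in WT and 1401 to 1620 in KO-labelled samples. Of 7 astrocyte markers 1 was lower, the glutamate transporter gene Slc1a3 (-1.50), and their sum was 1371 to 1906 in WT and 932 to 1033 in KO-labelled samples. Without Slc1a3, a choice made after its values were seen, the sum of the other 6 was 767 to 1064 in WT and 690 to 756 in KO-labelled samples. Of 8 endothelial and mural markers 2 were lower, Pecam1 (-1.43) and Kdr (-0.75), and 7 had a difference below 0. Their summed level was 646 to 974 in WT and 495 to 545 in KO-labelled samples. Among 9 neutrophil markers 1 was lower, Csf3r (-1.20), and their sum was 3415 to 5332 in WT and 1484 to 2720 in KO-labelled samples. Csf3r was the brightest of the 9 (mean 11.07 in WT and 9.86 in KO-labelled samples), so it weighs most in this sum. The other 8 did not pass and their groups overlapped, though all 9 had a difference below 0. No sum was made without Csf3r. The sum of 7 neuron markers was 469 to 502 against 513 to 587. Of the 7 astrocyte markers 6 had a difference below 0, with a median of -0.35. Aqp4 (-0.40), Gja1 (-0.37), Aldoc (-0.35), Gfap (-0.15), S100b (-0.14) and Aldh1l1 (0.01) did not pass. The part of these cells in the members' differences was not tested.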

How the data were processed

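The authors deposited log2 values made with RMA, per the submitters' processing notes, which name oligo and limma too for the exon level. RMA shrinks differences of dim genes. No source used here names the array annotation or build. Gene-level and exon-level columns of the same sample were matched by label, and their deviations from group means correlated (r = 0.510 to 0.583, against at most 0.044 for other samples).

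Symbols came from the platform annotation, updated through RefSeq (GRCm38.p6). Of the features with a single symbol, 14996 were clusters and 321091 probesets (320193 matched to RefSeq). Features with several symbols were not used for genes. Each table was tested whole (limma 3.58.1 under R 4.3.3, functions lmFit and eBayes, two-sided and without covariates), with Benjamini-Hochberg adjustment, a threshold of 0.05 and 95% intervals, and the code was tested on simulated data. Errors of differences are moderated standard errors. The labels call samples biological replicates without naming mice, so p-values measure the spread between these samples. The number of arrays limits the precision.

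All members are named. Values of all arrays are given for members that passed with a difference of at least 0.5, for SREBP, SCAP and INSIG genes and for members read at the exon level. Members and lists were chosen with earlier results of these data known. Alternatives were a replicate block, each sample left out, an intensity trend with robust variance, array weights, a second quantile normalization, no dim clusters (the lowest 25%), brighter probesets, exon-level gene values and a median over members.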

Additional observations from a re-analysis of the deposited data

How the results depend on the processing

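The 7 members that were lower by at least 0.5 (Insig1, Sc5d, Idi1, Msmo1, Cyp51, Hmgcs1 and Acly) passed in the same direction under every alternative run for them. Of all 33 members, 16 changed their call or sign under at least 1 alternative, and all of these had differences under 0.5. Sterol enzymes called lower numbered 6 in every cluster-level fit and 4 of the same 15 with exon-level gene values. The 1 called higher became 0 with the replicate block and with exon-level gene values, 2 with array weights or without dim clusters, and 0 in each fit that left out a sample (lowest 0, highest 0). Fatty acid enzymes called lower went from 2 to 1 with the replicate block and with exon-level gene values, and ran from 1 to 2 with a sample left out. The count was also 1 without dim clusters, where Elovl6 was removed as dim and so not tested. Those called higher went from 1 to 0 with the replicate block and with exon-level gene values, and ran from 0 to 1. Regulators called lower went from 2 to 1 with the replicate block and exon-level gene values, and ran from 1 to 2. The sterol branch mean differed by -0.23 with exon-level gene values, and sterol minus fatty acid by -0.20 there and by -0.44 with the median over members, under which the fatty acid branch was 0.18 in place of -0.03. Apart from the removal of Elovl6, the cause of these shifts was not tested.

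Of the 18 members that did not pass, 7 changed sign under at least 1 alternative and 11 kept it. Leaving out 1 sample gave -0.511 to 0.048 for Fdps, -0.194 to 0.092 for Tm7sf2, -0.12 to 0.17 for Scd1, -0.022 to 0.157 for Scd2 and -0.035 to 0.105 for Insig2. Brighter probesets gave 0.15 for Tm7sf2, exon-level gene values gave -6.2e-05 for Nsdhl, -0.0039 for Ebp and -0.058 for Scd1, and a second quantile normalization gave -0.018 for Insig2. Over all clusters the count of calls was 4758, and 4240 with the replicate block. Mean levels of Fdps and Elovl6 lay among the lowest 25% of clusters. Samples with the same replicate number did not deviate together (r = -0.029, -0.007 and 0.039), which with 3 samples per group cannot exclude a pairing. The labels name no pairs, so the replicate block was run only as an alternative fit.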
